A study of Mus with 6 samples.

Results

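5 RNA entries with very high and very uneven counts were examined in the right substantia nigra pars compacta of mice. 3 of them were among 2282 names in a table of long non-coding RNAs (lncRNAs): 4930509G22Rik, 4930546C10Rik and Gm15569. The other 2 were among 87858 NONCODE gene identifiers of a count table: NONMMUG015781.2 and NONMMUG026007.2. The names were taken for their large group means and large spread, and the identifiers for their share of each library, all in these same samples. Levels, spread and the difference between groups are therefore given as descriptions. No file pairs names with identifiers, and the entries of the 2 tables were not assumed to be the same RNAs.

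LncRNAs are transcripts that are not translated into protein. Some act in the nucleus on chromatin or on splicing, others bind proteins or microRNAs in the cytoplasm, and for many no function is known. Symbols ending in Rik come from full-length cDNA clones of the RIKEN mouse collection, and symbols made of Gm and a number are predicted gene models, so such names record how a transcript was found and not what it does. A sequencing library holds a limited number of reads, so an RNA that takes a large share of them leaves a smaller share to every other RNA.

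The tissue is the part of the midbrain whose dopaminergic neurons degenerate in Parkinson's disease. All animals overexpressed human α-synuclein with the A53T substitution, a change found in inherited Parkinson's disease. The 3 model samples came from such mice given saline (0.9%) into the peritoneum every day for 30 days. The 3 AVE0991 samples came from such mice given AVE0991, a non-peptide agonist of the angiotensin-(1-7) receptor Mas, at 10 mg/kg by the same route for 30 days. Mice without this overexpression were not analysed here. Age and the promoter or vector behind the overexpression were not given in the sources used here. Nothing in the labels says that each sample is a separate animal, so the p-values speak only of the spread between samples, which may be technical.

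The libraries of the count table held 43991913 to 52029003 counts in the model group against 37036986 to 42379095 in the AVE0991 group. The table by name gives group means with a test statistic, from which whole counts per library were recovered for 2244 names. The recovered libraries carry the letters a to c within each group and were not matched to the replicate numbers of the count table. Within each group the letters were given from the highest to the lowest factor that scales a library, so their order does not by itself match libraries between the tables. Ranked by factor in the same way, the model replicates of the count table stood in the order 1, 2 and 3. The AVE0991 replicates stood in the order 2, 1 and 3. Whether libraries at the same place in these orders are the same was not tested. Model replicate 3 in the count table and model library c in the table by name stood apart from the other libraries of their group in all 5 RNAs described here, so the differences between groups are given with and without them. Of 36 marker genes of brain and blood cell types, 2 (Meg3 and Miat, both neuronal) were in the table by name. In the authors' deposited table the mean normalised count of Meg3 was 213794 in the model group against 218164 with AVE0991, and that of Miat was 20390 against 38198. The recovered counts of Miat, before normalisation, were 19668, 17690 and 31006 in model libraries a to c. In AVE0991 libraries a to c they were 38037, 35272 and 37085. Whether the levels described here move with this marker was not tested. The markers of dopaminergic neurons were not analysed here, so the tissue label could not be checked against them. In bulk tissue, fewer cells of a type and less RNA per cell cannot be told apart.

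RefSeq (GRCm38.p6) lists all 3 names as lncRNA genes. 4930509G22Rik spans 14117 bp between the protein-coding genes Zc3h7a, 1782 bp away, and Rsl1d1, 744 bp away, and the pseudogenes Gm7638 and Gm6305 overlap it. 4930546C10Rik spans 62042 bp with no overlapping gene, and its nearest protein-coding neighbours are Mc2r, the receptor of adrenocorticotropic hormone, at 460166 bp, and Tcf4, a transcription factor of neural development, at 391900 bp. Gm15569 spans 1469 bp and overlaps Cerk, which encodes ceramide kinase. The strand setting of the counting was not given in the sources used here, so reads of Gm15569 and Cerk, or of 4930509G22Rik and its overlapping pseudogenes, cannot be told apart. Coordinates are not given because the files were made on mm9.

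4930509G22Rik had the highest count of all recovered names in each of the 6 libraries. Its recovered counts were 751208, 904090 and 5466765 in model libraries a to c, against 797070, 2549854 and 1614940 in AVE0991 libraries a to c. Model library c was far above the other model libraries, AVE0991 library a lay between model libraries a and b, and the groups overlapped. As a share of the counts of all recovered names these were 22.5%, 26.8% and 61.9% in the model group against 25.7%, 52.1% and 43.0% in the AVE0991 group. In model library c and AVE0991 library b it thus had more counts than all other recovered names together. The recovered names leave out Malat1, Meg3 and Gm33104. Whether it would exceed all other names with these included was not tested. Over all names of the authors' deposited table, it made up 43.3% of the summed model means and 39.6% of the summed AVE0991 means. Counts of names are not divided by length, so such shares and ranks say how many reads an RNA took. After division by the library factor of the authors' table, the normalised counts were 637310, 809112 and 5051812 in the model group against 803343, 2601539 and 1753642 in the AVE0991 group. Their means were 2166078 ± 2500595 (SD, n = 3) and 1719508 ± 899584 (SD, n = 3), and the highest library was 7.93 times the lowest.

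4930546C10Rik was also highest in model library c, then in AVE0991 libraries b and c, over a wider range. It had 16036, 27510 and 720081 recovered counts in model libraries a to c, against 28172, 170095 and 124952 in AVE0991 libraries a to c. These were 0.479%, 0.817% and 8.16% of the name counts in the model group against 0.907%, 3.48% and 3.33% in the AVE0991 group. By counts it ranked 21, 11 and 2 among the recovered names, which leave out Malat1, Meg3 and Gm33104, in the model libraries, against 9, 3 and 3 in the AVE0991 libraries. The normalised counts were 13605, 24620 and 665423 in the model group against 28394, 173543 and 135684 in the AVE0991 group. The highest library was 48.9 times the lowest, both of them model libraries, and all AVE0991 values fell inside the model range. The means were 234549 ± 373189 (SD, n = 3) and 112540 ± 75291 (SD, n = 3).

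Gm15569, which lies over Cerk, was the smallest of the 3 names. Its recovered counts were 2211, 3348 and 100873 in the model libraries, against 2567, 17946 and 14037 in the AVE0991 libraries. Model library c again held the highest value, and AVE0991 library a lay between model libraries a and b. Among the same recovered names, Gm15569 ranked 223, 148 and 5 by counts in the model libraries, against 156, 17 and 20 in the AVE0991 libraries. Its normalised counts were 1876, 2996 and 93216 in the model group against 2587, 18310 and 15243 in the AVE0991 group, with means of 32696 ± 52415 (SD, n = 3) and 12047 ± 8334 (SD, n = 3). The range between libraries, 49.7-fold, was close to that of 4930546C10Rik and far wider than that of 4930509G22Rik.

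**Figure D1:**
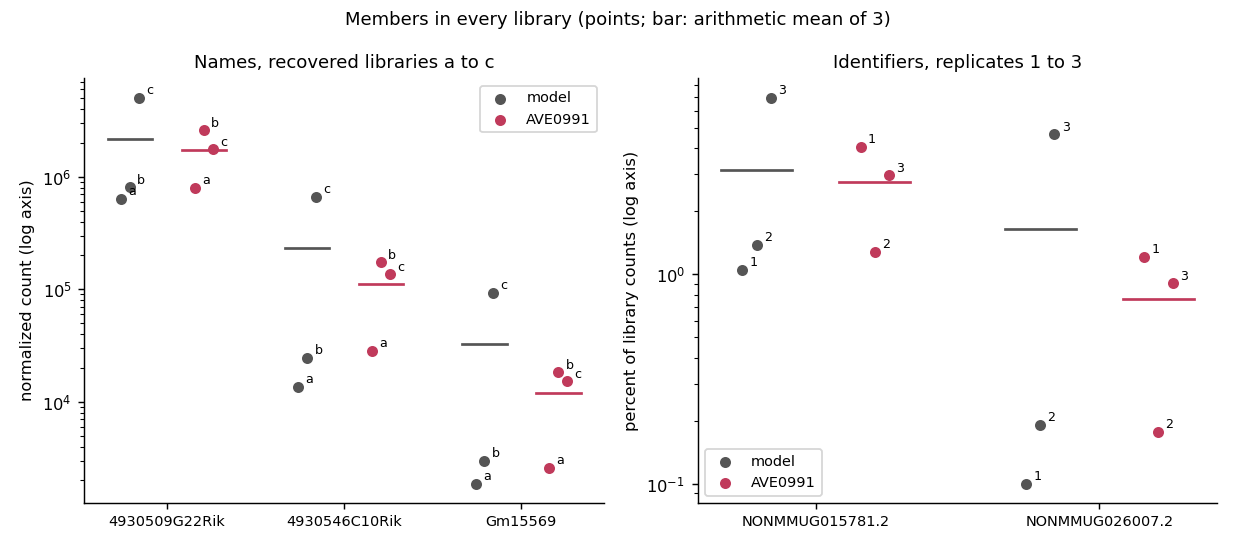
Level of each RNA in every library (points, with a bar at the mean of the 3 libraries of a group) on a log axis, with normalised counts of the 3 names on one side and percent of library counts of the 2 identifiers on the other. Model library c and model replicate 3 lie above all others in their panels, and the AVE0991 values lie inside the model range.

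In the count table, NONMMUG015781.2 had 499679, 609710 and 3631586 counts in model replicates 1, 2 and 3, against 1721938, 542381 and 1100196 in AVE0991 replicates 1, 2 and 3. These were 1.05%, 1.39% and 6.98% of the library in the model group against 4.06%, 1.29% and 2.97% in the AVE0991 group. Model replicate 3 was the highest and model replicate 1 the lowest, so the AVE0991 values fell inside the model range. The means were 3.14% ± 3.33 (SD, n = 3) in the model group against 2.77% ± 1.40 (SD, n = 3) in the AVE0991 group. Without model replicate 3 the model mean was 1.22%, below the AVE0991 mean. By counts this identifier ranked 8, 8 and 1 of all identifiers in the model replicates, against 3, 7 and 3 in the AVE0991 replicates.

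NONMMUG026007.2 had 47693, 84073 and 2426160 counts in model replicates 1, 2 and 3, against 515399, 74871 and 335348 in AVE0991 replicates 1, 2 and 3. Its shares were 0.1001%, 0.191% and 4.66% in the model group against 1.22%, 0.177% and 0.905% in the AVE0991 group. From high to low the order was model replicate 3, AVE0991 replicate 1, AVE0991 replicate 3, model replicate 2, AVE0991 replicate 2 and model replicate 1, as for NONMMUG015781.2. The mean share was 1.65% ± 2.61 (SD, n = 3) in the model group against 0.766% ± 0.533 (SD, n = 3) in the AVE0991 group. Without model replicate 3 the model mean was 0.146%, below the AVE0991 mean. The highest share was 46.6 times the lowest, against 6.65 times for NONMMUG015781.2. Counting error was small beside these ranges: the 95% Wilson interval of each share of the 2 identifiers reached at most 0.00692 percentage points to either side, against at most 0.0501 points for the recovered names. These intervals cover counting error only.

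Both identifiers gained weight once counts were set against transcript length. In TPM, a unit that divides by transcript length and scales each library to the same total, NONMMUG015781.2 made up 3.51%, 4.73% and 19.96% of the total in the model replicates, against 12.4%, 4.37% and 9.84% in the AVE0991 replicates. It ranked 4, 4 and 1 by TPM in the model replicates, against 1, 4 and 1 in the AVE0991 replicates. NONMMUG026007.2 made up 0.228%, 0.443% and 9.07% of TPM in the model replicates, against 2.52%, 0.410% and 2.04% in the AVE0991 replicates, and was second by TPM in model replicate 3. The lengths implied by counts and TPM were 0.200 and 0.294 of the median of 22371 identifiers, of which 3.52% and 7.07% were shorter. In FPKM, which divides by length and library size, the level of NONMMUG015781.2 was 18118, 23490 and 117964 in the model replicates, against 68394, 21840 and 50892 in the AVE0991 replicates.

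The RNAs together took a variable share of counts, large among the recovered names and smaller among all identifiers. The 3 names summed to 23.0%, 27.8% and 71.2% of recovered name counts in model libraries a to c, against 26.7%, 56.0% and 46.7% in AVE0991 libraries a to c. The 2 identifiers summed to 1.15%, 1.58% and 11.6% of counts in model replicates 1, 2 and 3, against 5.28%, 1.46% and 3.88% in AVE0991 replicates 1, 2 and 3. In each table a single model library exceeded every other library, 2 AVE0991 libraries were intermediate, and the remaining 3 libraries were low. On the TPM scale the 2 identifiers reached 29.0% of the total in model replicate 3, against 3.74% in model replicate 1.

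**Figure D2:**
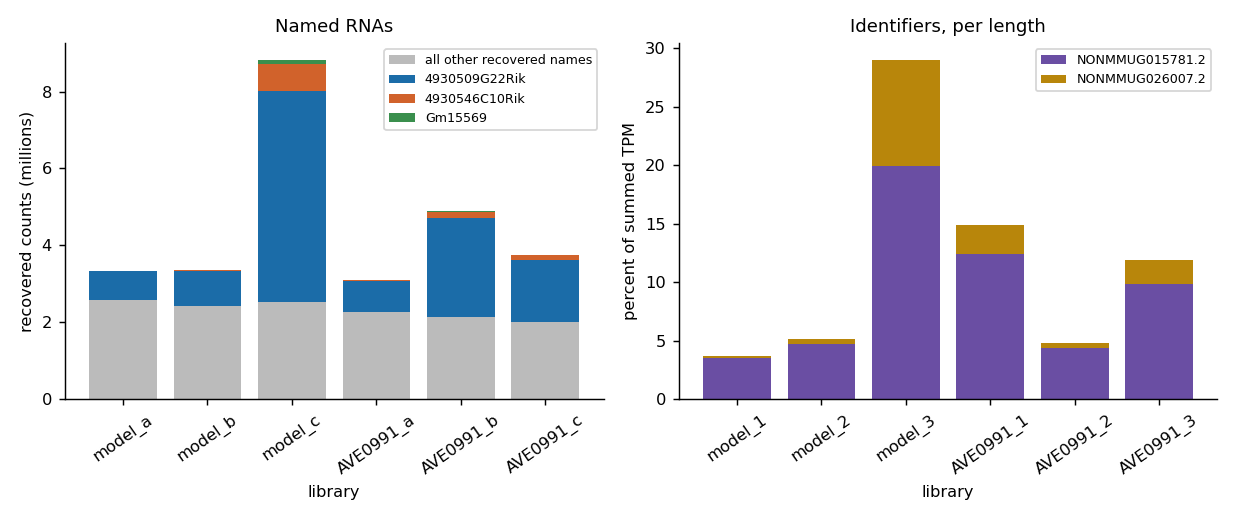
Stacked bars of recovered counts of the 3 names and of all other recovered names in each library, beside stacked bars of the 2 identifiers as percent of summed TPM in each library. The part of the other names stays between 1999255 and 2576277 counts while the 3 names vary, and the 2 identifiers run from 3.74% to 29.0% of TPM.

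The totals of the named table moved with these RNAs. All recovered names had 3345732, 3369046 and 8828044 counts in the model libraries, against 3105003, 4890129 and 3753184 in the AVE0991 libraries, a 2.84-fold range. Without the 3 names, the totals were 2576277, 2434098 and 2540325 in the model libraries, against 2277194, 2152234 and 1999255 in the AVE0991 libraries, a 1.29-fold range. Malat1, Meg3 and Gm33104, whose counts could not be recovered as a single set, are outside these totals. The lncRNA Norad, a recovered name next in level that binds Pumilio proteins, is an example of how shares moved with these totals. It had 211758, 210031 and 254821 counts in the model libraries, with the highest count in library c, yet its share of name counts there was the lowest, at 2.89% against 6.33% and 6.23%. With the 3 names taken out of the total, Norad made up 8.22%, 8.63% and 10.0% in the model libraries, against 13.2%, 11.2% and 11.1% in the AVE0991 libraries.

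The spread of these RNAs was far above that of most RNAs with a mean normalised count of at least 100. Among 1246 recovered names above that level, the median coefficient of variation (CV, the SD as percent of the mean) was 15.9% in the model group against 14.5% in the AVE0991 group. The model CV was 115% for 4930509G22Rik, 159% for 4930546C10Rik and 160% for Gm15569, places 7, 3 and 1 of the 1246. The AVE0991 CV was 52.3%, 66.9% and 69.2%, places 32, 20 and 17. The high spread was thus present in both groups and larger in the model group, where model library c stood far above the others. For 4930509G22Rik, model libraries a and b had normalised counts of 637310 and 809112, against 5051812 in c. The difference in spread was not tested because the names were chosen on their spread. The recovered names next in level, Norad, Kcnq1ot1 and Lncpint, had a model CV of 14.98%, 9.10% and 8.74%. Among 27217 identifiers, the model CV was 116% for NONMMUG015781.2 and 161% for NONMMUG026007.2, against a median of 14.5%. Their AVE0991 CV was 53.3% and 71.7%, against a median of 13.4%.

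**Figure D3:**
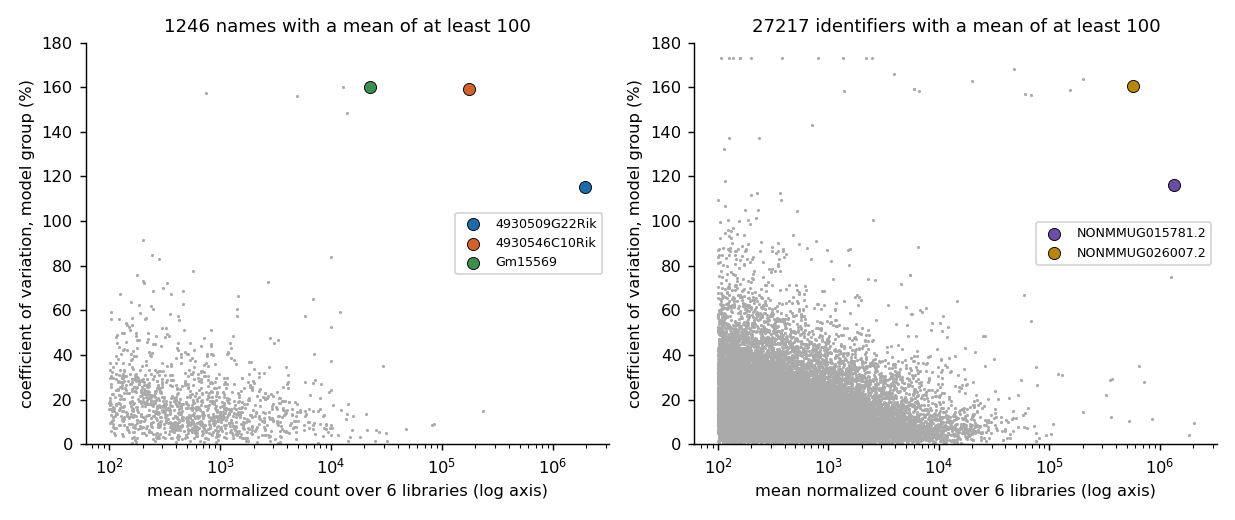
Coefficient of variation within the model group against mean normalised count (log axis), 1 point per name or identifier, with the described RNAs marked. The marked RNAs lie at a CV of 115% to 161%, against medians of 15.9% for names and 14.5% for identifiers.

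Only 7 of the 1246 names had a model CV of 100% or more: the 3 names described, 1700064M15Rik, Gm8579, Gm26839 and the microRNA gene Mir331. Of the other 4, 1700064M15Rik, Gm8579 and Gm26839 were also high in model library c and next in AVE0991 libraries b and c. 1700064M15Rik had normalised counts of 950, 1873 and 52290 in the model libraries, against 1599, 11503 and 8847 in the AVE0991 libraries. Gm26839 had 2423, 3243 and 53466 in the model libraries, against 2530, 12526 and 9649 in the AVE0991 libraries, and the groups overlapped in both. RefSeq places 1700064M15Rik and Gm26839 beside each other, between Foxn3, a forkhead transcription factor, and Efcab11, and lists Gm8579 as a transcribed pseudogene. In Mir331 the pattern differed: its recovered counts were 110, 53 and 2326 in the model libraries, against 2022, 104 and 77 in the AVE0991 libraries, with AVE0991 library a high in place of b and c.

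The 3 names varied together across libraries. On log2(normalised count + 1) over the same 6 libraries, Pearson's r was 0.992 between 4930509G22Rik and 4930546C10Rik, 0.993 between 4930509G22Rik and Gm15569, and 0.994 between 4930546C10Rik and Gm15569. For each of the 3 names, 1700064M15Rik was the closest of the 1246 names, with r of 0.994 for 4930509G22Rik, 0.997 for 4930546C10Rik and 0.998 for Gm15569. Gm26839 and Gm8579 came next for Gm15569, with r of 0.996 and 0.995. These values describe 6 shared libraries, of which 1 is far above the others, and are not independent of the choice of the names.

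The 2 identifiers varied together as well, with r of 0.997 over the 6 libraries. Closest to NONMMUG015781.2 were NONMMUG095718.1 and NONMMUG015169.3, each with r of 0.998. Closest to NONMMUG026007.2 were NONMMUG054521.2, NONMMUG089504.1 and NONMMUG016749.2, each with r of 0.999. NONMMUG054521.2 and NONMMUG089504.1 had nearly the same counts in every library, and whether they share reads was not tested. NONMMUG095718.1 made up 0.0175%, 0.0273% and 0.524% of the model replicates and 0.155%, 0.0241% and 0.113% of the AVE0991 replicates. With r of at least 0.95 and a highest library at least 5 times the lowest, limits chosen after the values were seen, 12 other identifiers of 27217 followed either of the 2. Those 12 summed to 0.104%, 0.180% and 4.68% of counts in the model replicates, against 1.16%, 0.167% and 0.975% in the AVE0991 replicates. With the 2 identifiers added, the sum reached 16.3% in model replicate 3 and 1.25% in model replicate 1.

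**Figure D4:**
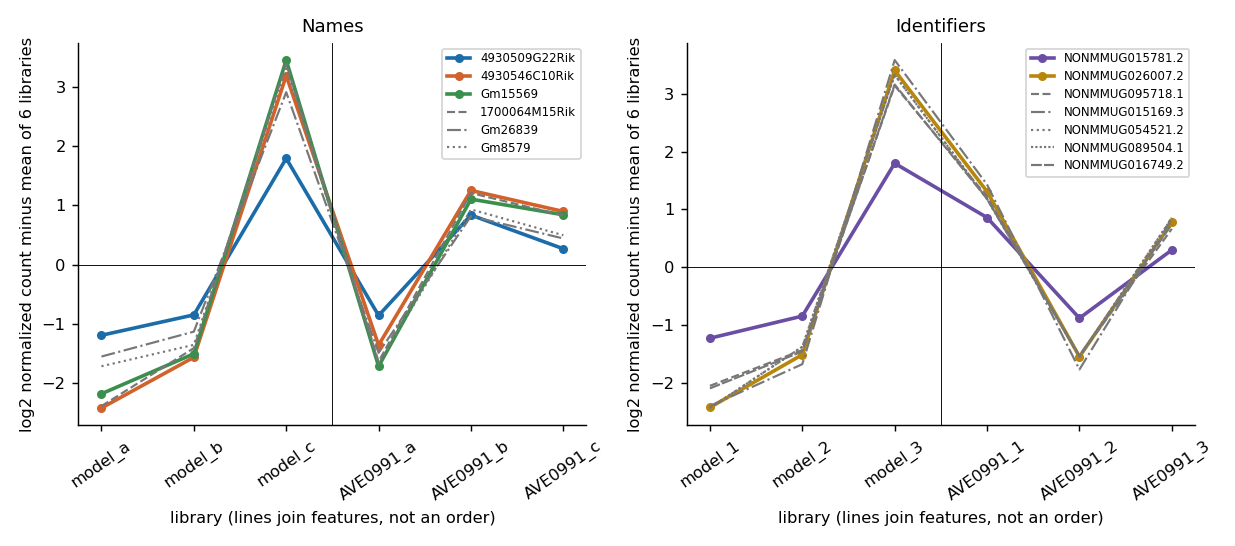
Level in each library relative to the geometric mean of the 6 libraries (log2 scale), for the described RNAs and the features most like them. All lines peak in model library c or model replicate 3, and the pairwise Pearson's r of the described RNAs runs from 0.992 to 0.997.

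Set against each other with values ordered from low to high within each group, since the libraries are not matched, 4930509G22Rik and NONMMUG015781.2 kept a nearly fixed ratio. The count of the name was 1.47 to 1.51 times that of the identifier. This was the steadiest ratio of 28777 identifiers with at least 50 counts in every library, with an SD of 0.0157 on the log2 scale against 0.429 for the next. For 4930546C10Rik the steadiest was NONMMUG091736.1, at 1.097 to 1.193 times, and NONMMUG026007.2 was 4th, at 0.297 to 0.376 times. For Gm15569 the steadiest was NONMMUG026007.2, at 0.0343 to 0.0464 times. Of 1268 names with at least 600 counts, 0 had an identifier with the same counts. A steady ratio alone does not pair a name with an identifier, since some RNAs that vary together also keep one. Others do not: the count of 4930509G22Rik was 2.25 to 15.8 times that of NONMMUG026007.2. Whether 4930509G22Rik and NONMMUG015781.2 are the same RNA was not tested.

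The design compares these levels between mice given AVE0991 and mice given saline, all overexpressing A53T α-synuclein. In the authors' deposited table by name, the log2 ratio of the AVE0991 mean to the model mean was -0.33 for 4930509G22Rik, -1.06 for 4930546C10Rik and -1.44 for Gm15569, with unadjusted p-values of 0.793, 0.631 and 0.567. In edgeR's quasi-likelihood test on the recovered counts, the log2 fold change (AVE0991 over model) was -0.27 ± 0.77 (SE) for 4930509G22Rik, -0.99 ± 1.30 for 4930546C10Rik and -1.37 ± 1.34 for Gm15569. Benjamini-Hochberg adjusted p-values over all names were 0.855, 0.661 and 0.540. The test called 0 of the 3 names at an adjusted p under 0.05, where it called 15.3% of all names tested. At an unadjusted p under 0.05 it also called 0 of the 3, against 568 of 1849 names tested. DESeq2, which called 18.4% of all names, called 0 and gave no p-value for 4930546C10Rik and Gm15569. Since the names were taken for their large spread, the test against that spread is a description, and nothing is read from the missing calls.

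The same test on the deposited counts gave a log2 fold change of -0.34 ± 0.65 (SE) for NONMMUG015781.2, with a Benjamini-Hochberg adjusted p of 0.775. For NONMMUG026007.2 it gave -1.33 ± 1.14 (SE), with an adjusted p of 0.476. It called 0 of the 2 identifiers, where it called 19.5% of all 53206 identifiers tested. At an unadjusted p under 0.05 it called 0 of the 2, against 16925 of the 53206. Both counts are likewise a description of identifiers taken for their variable share. DESeq2, which called 15.1% of all identifiers, also called 0 of the 2. The authors' deposited table by identifier gives -0.32 ± 1.03 (SE) and -1.30 ± 1.47 (SE), with adjusted p-values of 0.904 and 0.656. The sign of these differences rested on how libraries were averaged. The log2 ratio of geometric means of normalised counts, AVE0991 over model, was above 0 in every case, at 0.18 for NONMMUG015781.2, 0.36 for NONMMUG026007.2, 0.16 for 4930509G22Rik, 0.53 for 4930546C10Rik and 0.15 for Gm15569.

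Leaving out 1 model library turned the direction of all 5 differences. Without model library c, the log2 fold change was 1.32 ± 0.42 (SE) for 4930509G22Rik, 2.64 ± 0.70 for 4930546C10Rik and 2.39 ± 0.73 for Gm15569. The edgeR adjusted p-values were 0.0600, 0.0309 and 0.0534, in a fit that called 21.3% of all names. Without model replicate 3, it was 1.31 ± 0.36 (SE) for NONMMUG015781.2 and 2.52 ± 0.61 (SE) for NONMMUG026007.2, with edgeR adjusted p-values of 0.0194 and 0.0105, in a fit that called 24.2% of all identifiers. These calls rest on 2 model libraries that lay close to each other. Even then AVE0991 library a and AVE0991 replicate 2 stayed near the remaining model libraries. The library left out was the one highest in these RNAs, which were chosen on level, spread or share in these same samples. These p-values are therefore a description, and no rise with AVE0991 is read from them. Without AVE0991 library a, 4930509G22Rik had a log2 fold change of 0.08, and without AVE0991 replicate 2, NONMMUG015781.2 had 0.03. Every remaining fold change with 1 library left out was negative.

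**Figure D5:**
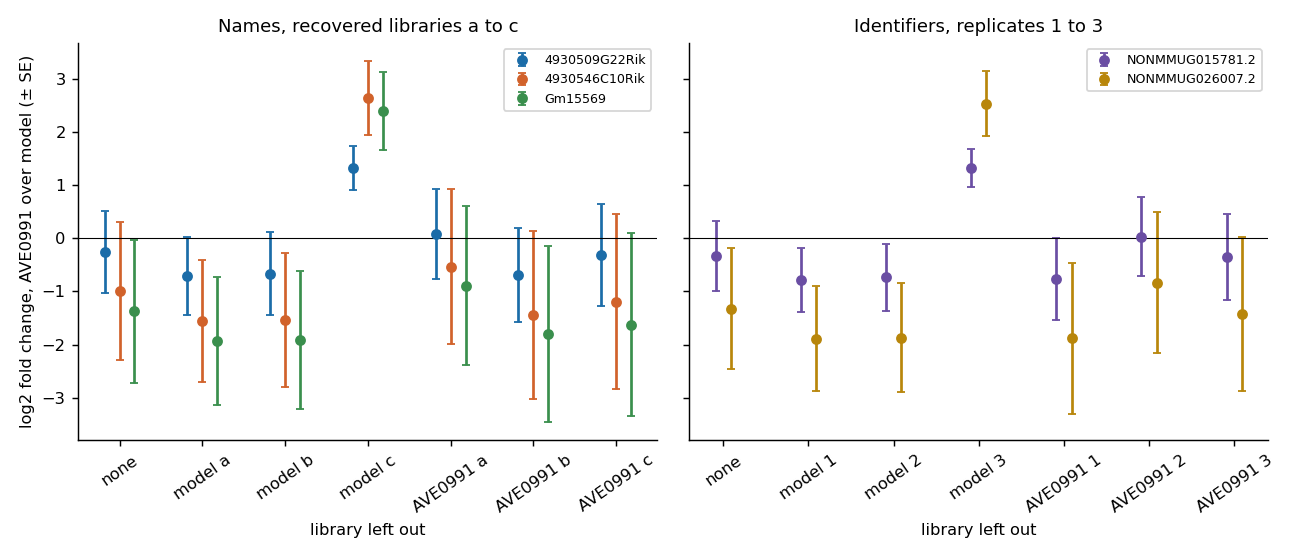
Log2 fold change (AVE0991 over model) of each RNA with its SE, with all libraries and with each library left out in turn. All 5 values lie above 0 without model library c or model replicate 3, from 1.31 to 2.64, and the value with all libraries lies between -1.37 and -0.27.

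How many other names were called also changed with these RNAs when libraries were scaled by their totals. With scaling by the trimmed mean of M values (TMM), which leaves the most extreme genes out of the scaling, edgeR called 283 of 1849 names, 139 higher and 144 lower in the AVE0991 group. The TMM factor was 0.503 for model library c and ran from 0.800 to 1.47 in the other recovered libraries. With library totals alone, it called 51 names (2.76%), 16 higher and 35 lower, and the median log2 fold change of all names moved from 0.00 to -0.13. With the 3 names removed, a step added after seeing the data, library totals gave 292 calls of 1871 names tested (15.6%), 137 higher and 155 lower, of which 269 were among the 283. The identifiers took a smaller share of their table, and there library totals alone gave 9926 calls (18.7%) against 10363 with TMM, with 59.0% and 52.0% of calls higher.

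Clone names as a class had a median spread and a share of calls near those of all names, most of which they are. Such a likeness of a part to its whole is largely built in, and names outside the class were not summarised separately. Of 1288 tested names that end in Rik or are Gm with a number, 115 were called higher and 86 lower in the AVE0991 group, 15.6% together. Of all 1849 names tested, these included, 139 were called higher and 144 lower, 15.3% together. The median log2 fold change was 0.08 for the clone names and 0.00 for all names. Among names with a mean normalised count of at least 100, the median model CV was 16.4% for 837 clone names, against 15.9% for all 1246.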

How the data were processed

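RNA of the right substantia nigra pars compacta was compared between 3 model samples and 3 treated with AVE0991, as their titles give the groups. The members and lists described here were chosen with earlier results of these data known. Per the labels' protocols, DNase-treated total RNA was sequenced, with FastQC 0.11.8 and fastp 0.19.5 for read quality. Per the submitters' processing notes, the tools were STAR 2.7.7a and DESeq2 1.10.1, on build mm9. Counting program, annotation and strand setting were not given in the sources used here.

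Deposited by the authors were whole-number counts, FPKM and TPM per NONCODE identifier. The authors' deposited comparison of identifiers holds a mean signal (counts over size factors), a log2 fold change with its standard error, a test score and p-values. The authors' table by name holds, per the file headers, the mean signal of either group, the ratio of the means (fold change) and its log2, a test score with degrees of freedom, and an unadjusted p-value.

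The group means by name average 3 counts scaled by a factor per library, and statistic and degrees of freedom together fix the variance of each group. Of 2247 names with a statistic, a single set of whole counts gave these values back for 2244, while 2 (Malat1 and Meg3) had several sets and 1 (Gm33104) had none. A further 35 names were 0 throughout. The recovered library factors ran from 0.921 to 1.18.

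The test was edgeR 4.0.16 in R 4.3.3 (quasi-likelihood, TMM, filterByExpr) over all names or all identifiers, with Benjamini-Hochberg adjustment. Each standard error was taken as log2 fold change over the root of the F statistic. Alternatives were other scalings, no filter, DESeq2 1.42.0, limma 3.58.1 on log2(FPKM + 1) and log2(FPKM + 0.1), the replicate number as a block, and each library left out. Named were the members, for each the 3 features with the highest Pearson's r among those with a mean normalised count of at least 100, and the 5 names and 5 identifiers next in level. Names with a model CV of 100% or more, and NONMMUG091736.1, were named after their values were seen. The recovery and the tests were tested on simulated data.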

Additional observations from a re-analysis of the deposited data

How the results depend on the processing

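For the names, library totals alone gave 4930509G22Rik a log2 fold change of 0.12. With 1 library left out, the log2 fold changes ran from -0.71 to 1.32 for 4930509G22Rik, -1.56 to 2.64 for 4930546C10Rik and -1.94 to 2.39 for Gm15569. 4930509G22Rik was above 0 without model library c (1.32) and without AVE0991 library a (0.08), and 4930546C10Rik (2.64) and Gm15569 (2.39) without model library c.

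For the identifiers, NONMMUG015781.2 ran from -0.78 to 1.31 with 1 library left out, with 1.31 without model replicate 3 and 0.03 without AVE0991 replicate 2, and NONMMUG026007.2 from -1.89 to 2.52, the latter without model replicate 3. With limma, on log2(FPKM + 1) and then on log2(FPKM + 0.1), the values were 0.20 and 0.20 for NONMMUG015781.2 and 0.37 and 0.37 for NONMMUG026007.2. These fits average logarithms. As a share of summed FPKM, the group mean of NONMMUG015781.2 was 9.40% in the model group and 8.86% in the AVE0991 group, and that of NONMMUG026007.2 was 3.25% against 1.66%. FPKM divides by length.

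With the replicate number as a block, the log2 fold change was 0.15 for NONMMUG015781.2 and 0.21 for NONMMUG026007.2, and 10217 identifiers were called, of which 9479 were among the 10363. The correlations of deviations between samples of the same number were 0.01, 0.06 and 0.02, against -0.05 to 0.02 between samples of different numbers. Whether the numbers pair samples cannot be decided from these few values. No paired analysis was run for the names because the recovered libraries carry no replicate number.

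Calls among identifiers ran from 5495 to 13534 with 1 library left out, and calls among names from 81 to 409, against 283. Without model library c and without model replicate 3 the calls rose, to 409 and 13534. Library totals alone gave 51 calls among names, and 292 once the 3 names were removed. The authors' deposited p-values, once adjusted, gave 0 calls among 2247 names. At an unadjusted p under 0.05 they gave 423 of these 2247, against 568 of the 1849 names tested in edgeR. The cause of the differences with 1 library left out, and of that from the authors' p-values, was not tested.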

Other observations

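Another identifier of high level, NONMMUG018330.3, was also high in model replicate 3. It made up 2.04%, 2.11% and 5.53% of counts in model replicates 1, 2 and 3 and 2.63%, 2.11% and 2.44% in the AVE0991 replicates, with a model CV of 75.0%. Its neighbours in level NONMMUG044354.2 and NONMMUG020671.2 were not raised there, at 4.11% and 3.64% in model replicate 3 against 4.26% and 4.86% in model replicate 1.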
